A study of Homo sapiens with 9 samples.

Results

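The genes described are the enzymes that cut, shed and cross-link the extracellular matrix, and the inhibitors that hold them back. They were taken by name: every symbol in the count files that begins with MMP or ADAM, with TIMP and a digit, or with LOX alone or LOXL, leaving out 15 antisense and pseudogene names such as LOXL1-AS1 and ADAM3A. The rule used no measured value and found 77 of 26364 genes, of which 23 are MMPs, 21 ADAMs, 19 ADAMTS genes, 5 ADAMTS-like genes, 4 TIMPs and 5 lysyl oxidases. RNA was measured by sequencing in MDA-MB-231, a human triple-negative breast cancer line of mesenchymal character, grown for 48 h in DMEM with 10% FBS. A pLVX lentivirus carried MEL-18 T334A (the mutant that lacks phosphorylation at T334), MEL-18 WT or no insert (the empty vector), and each group held 3 libraries. The series calls these biological replicates without saying whether each had its own transduction. The p-values thus refer to the spread between cultures, which may be technical, and an effect of a construct cannot be told apart from a difference between transduced lines.

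Matrix metalloproteinases (MMPs) are zinc enzymes that are made as inactive precursors, and between them they degrade collagens, proteoglycans and other matrix proteins. ADAMs are mostly anchored in the membrane and shed growth factors, cytokines and receptors from the cell surface, whereas the secreted ADAMTS enzymes cut proteoglycans and process procollagen. Tissue inhibitors of metalloproteinases (TIMPs) block MMPs and some ADAMs, and lysyl oxidases oxidise lysines of collagen and elastin so that fibres become cross-linked. MEL-18, encoded by PCGF2, is a RING finger protein of the repressive Polycomb complex PRC1.

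Library totals ran from 31643722 to 37005302 counts. Levels are given as CPM, counts scaled to library size with TMM factors as edgeR gives them, and a gene is said to be higher or lower only where its edgeR quasi-likelihood test, adjusted over all 14738 genes tested, gave a p below 0.05. PCGF2 stood at 1419.8 ± 31 CPM in MEL-18 T334A cells, 1286 ± 6.5 CPM in MEL-18 WT cells and 22.7 ± 0.88 CPM in vector cells (SD, n = 3 each). It was also higher with MEL-18 T334A than with MEL-18 WT (log2 fold change 0.14 ± 0.03 SE, edgeR adjusted p = 1.48e-04). VIM averaged 1545, 1481 and 1447 CPM in MEL-18 T334A, MEL-18 WT and vector cells. Summed with the other mesenchymal markers CD44, CAV1 and FN1, it ranged over 3248 to 3323, 2940 to 2999 and 3016 to 3126 CPM in the same order. The sum of 5 epithelial markers ranged over 670 to 695, 746 to 749 and 683 to 708 CPM. ESR1 and PGR held at most 4 counts in any library, and ERBB2 was 69.9, 68.6 and 63.8 CPM. The summed level of 6 fibroblast markers ranged over 19.2 to 25.8 CPM in MEL-18 T334A libraries, 18.9 to 21.4 in MEL-18 WT libraries and 15.4 to 16.2 in vector libraries, nearly all of it COL1A1 and PDGFRB, while DCN and LUM had at most 3 counts in a library. The summed level of 3 endothelial markers ran the other way, at 0.592 to 0.962, 1.14 to 1.48 and 1.98 to 2.41 CPM, and 4 leukocyte markers together reached at most 1.35 CPM. The part of these markers in the results below was not tested. MEL-18 T334A replicate 3 differed most from its own group, with chi-square values of 3.64 and 3.98 per degree of freedom against the other two libraries.

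Of the 77 genes, 47 had enough counts to be tested and 30 did not. Every TIMP and every lysyl oxidase was tested, against 10 of 23 MMPs, 12 of 21 ADAMs, 12 of 19 ADAMTS genes and 4 of 5 ADAMTS-like genes. Among the tested genes, MMP3, ADAM28, ADAM32 and ADAMTS18 did not reach the filter's level of about 10 counts in every library of all 3 groups, and the other 43 did. The untested genes held between 1 and 66 counts over all 9 libraries and never more than 15 in a library. They included both gelatinases, the MMPs best known for cutting denatured and basement membrane collagen. MMP2 had 6, 0 and 3 counts in MEL-18 T334A libraries, 2, 1 and 3 in MEL-18 WT libraries and 0, 1 and 2 in vector libraries, and MMP9 had 1 or 2 counts in each. At this depth no difference in either gelatinase was detectable.

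The MMP genes clustered on chromosome 11 split in the same way. MMP1 and MMP3 were tested, whereas MMP7, MMP8, MMP12, MMP20 and MMP27 had at most 2 counts in a library. MMP10, a stromelysin, had 2, 3 and 3 counts in MEL-18 T334A libraries, 4, 1 and 2 in MEL-18 WT libraries and 0, 0 and 1 in vector libraries. MMP13, a collagenase, had 6, 4 and 3 counts, 6, 5 and 9 counts and 10, 7 and 5 counts in the same order. With the filter on low counts removed, 2 of the 30 genes were called between MEL-18 T334A and vector cells, and both were higher. Of the 30, DESeq2 called MMP28 alone in this comparison, and not ADAMTS2. MMP28 had 9, 15 and 11 counts in MEL-18 T334A libraries, 6, 9 and 3 in MEL-18 WT libraries and 3, 2 and 4 in vector libraries. ADAMTS2, a procollagen N-propeptidase, had 8, 7 and 6 counts with MEL-18 T334A, 2, 2 and 4 with MEL-18 WT and 1, 1 and 0 with the vector (edgeR adjusted p = 0.00202 against the vector). The MEL-18 T334A libraries lay above the vector libraries in both genes.

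Promoters of the tested genes held more CG pairs, the sites of DNA methylation, than those of the untested genes. RefSeq gave a promoter (GRCh38.p14, 250 bases before to 50 after the gene's start) for 48 of the 77 genes. The median was 29 CG pairs in 31 tested genes and 4 in 17 untested genes, beside 14 over all 35116 promoters of that table. The following 5 are shown because the results turn on the genes, MMP8 standing for an untested gene, with each CG pair in capitals and read 5′ to 3′ on the gene's strand. MMP11 (chr22:23772599-23772898, plus strand) has 28 CG pairs, MMP8 (chr11:102724905-102725204, minus strand) has 2, ADAMTS12 (chr5:33891941-33892240, minus strand) has 24, TIMP3 (chr22:32801455-32801754, plus strand) has 31 and TIMP4 (chr3:12158863-12159162, minus strand) has 12.
MMP11: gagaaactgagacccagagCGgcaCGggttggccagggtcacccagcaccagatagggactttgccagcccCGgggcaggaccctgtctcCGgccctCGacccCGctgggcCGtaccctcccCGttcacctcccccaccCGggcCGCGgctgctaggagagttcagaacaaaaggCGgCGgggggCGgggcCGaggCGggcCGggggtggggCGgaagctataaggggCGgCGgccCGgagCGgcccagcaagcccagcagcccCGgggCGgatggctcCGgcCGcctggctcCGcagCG
MMP8: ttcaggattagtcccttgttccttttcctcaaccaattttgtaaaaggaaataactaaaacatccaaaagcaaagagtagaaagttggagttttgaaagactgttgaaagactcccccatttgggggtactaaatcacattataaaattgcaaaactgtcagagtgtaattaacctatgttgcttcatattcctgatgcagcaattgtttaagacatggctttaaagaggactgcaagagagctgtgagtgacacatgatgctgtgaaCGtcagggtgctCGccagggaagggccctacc
ADAMTS12: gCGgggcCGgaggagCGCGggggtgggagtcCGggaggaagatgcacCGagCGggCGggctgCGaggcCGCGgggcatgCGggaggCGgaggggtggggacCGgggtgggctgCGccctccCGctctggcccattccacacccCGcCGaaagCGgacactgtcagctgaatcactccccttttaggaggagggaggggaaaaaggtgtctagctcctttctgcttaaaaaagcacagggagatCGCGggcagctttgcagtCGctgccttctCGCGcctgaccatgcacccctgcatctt
TIMP3: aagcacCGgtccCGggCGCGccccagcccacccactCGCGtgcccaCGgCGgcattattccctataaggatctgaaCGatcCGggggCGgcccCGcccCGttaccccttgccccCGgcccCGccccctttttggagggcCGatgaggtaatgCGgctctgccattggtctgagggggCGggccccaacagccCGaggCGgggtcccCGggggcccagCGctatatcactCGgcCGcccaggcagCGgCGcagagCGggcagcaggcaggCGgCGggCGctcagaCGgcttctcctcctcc
TIMP4: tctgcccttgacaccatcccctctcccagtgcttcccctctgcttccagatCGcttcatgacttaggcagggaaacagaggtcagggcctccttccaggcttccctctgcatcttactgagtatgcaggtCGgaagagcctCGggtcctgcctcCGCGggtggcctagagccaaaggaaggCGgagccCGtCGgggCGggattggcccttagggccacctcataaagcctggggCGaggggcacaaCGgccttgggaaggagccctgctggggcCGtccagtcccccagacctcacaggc
LOX, LOXL3 and ADAMTS10 had more than 1 promoter each. The AP-1 motif TGACTCA, searched on both strands, was found in a promoter of 1 of the 48 genes (MMP7) and in 4.95% of all promoters. The other 29 genes, MMP1, MMP3, MMP9 and MMP13 among them, had no promoter there and were not searched. The motif TATAAA was found in a promoter of 9 of the 48 genes and in 11.5% of all promoters.

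Per length, the RNA of these families was mostly that of sheddases and inhibitors. With CPM divided by exon length in kilobases (RPKM), the vector cells ranked ADAM9 first at 92.7 ± 0.54 (SD, n = 3), followed by TIMP2 at 70.1 ± 1.8, ADAM15 at 67.2 ± 0.40, TIMP1 at 63.5 ± 0.80 and LOXL2 at 48.4 ± 0.39. MMP14, TIMP3 and ADAM10 stood together at 25.7 ± 0.19, 25.4 ± 1.5 and 25.1 ± 0.62 RPKM and did not differ beyond their spread. MMP14, the membrane-type enzyme that activates the MMP2 precursor, made up most of the RNA of its family, which summed to 34.6 ± 1.7 RPKM in MEL-18 T334A cells, 33.1 ± 0.76 in MEL-18 WT cells and 30.5 ± 0.34 in vector cells over 23 genes.

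The summed level of the lysyl oxidases was 73.1 ± 3.4 RPKM with MEL-18 T334A, 54.5 ± 0.32 with MEL-18 WT and 61.2 ± 0.70 with the vector. The ADAMs summed to 201 ± 1.6, 173 ± 1.2 and 209.7 ± 1.7 RPKM, and the TIMPs to 145 ± 6.3, 156 ± 2.2 and 166 ± 1.4 RPKM, in the same order. MEL-18 WT cells were thus lowest for lysyl oxidases and ADAMs, and MEL-18 T334A cells lowest for TIMPs.

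The comparisons with the vector asked which of the genes changed with each form of MEL-18. Of the 47 tested, 24 were higher and 7 lower in MEL-18 T334A cells than in vector cells, where 23.4% of all tested genes were higher and 22.5% lower (45.9% in all). In MEL-18 WT cells, 18 were higher and 10 lower than in vector cells, beside 14.4% of all tested genes in each direction (28.8% in all). The direct comparison of MEL-18 T334A with MEL-18 WT bears on the T334 site and on the called difference in PCGF2 level alike. It found 17 higher and 6 lower, against 21% and 20% of all tested genes (40.9% in all). The share called higher (51.1%, 38.3% and 36.2% of the 47) thus lay above that of all genes in each comparison, whereas the share called lower (14.9%, 21.3% and 12.8%) lay below it in both comparisons that involve MEL-18 T334A and above it for MEL-18 WT against the vector. With library totals in place of TMM the counts were 24 and 5, 18 and 9, and 17 and 5, while the share of higher calls among all genes was 64%, 60.1% and 58.4%, against 51.1%, 50.1% and 51.2% with TMM.

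A change of at least 1.5-fold was found in 14 genes with MEL-18 T334A against the vector (11 higher, 3 lower), in 10 with MEL-18 WT against the vector (8 higher, 2 lower) and in 10 with MEL-18 T334A against MEL-18 WT (7 higher, 3 lower). Over all tested genes such calls made up 6.86%, 4.38% and 4%. The median log2 fold change of the 47 was 0.26, 0.18 and 0.09 in the same order, against -0.0022, -0.00165 and -0.00326 over all genes. Libraries of the groups compared did not overlap in 30, 34 and 25 of the 47, where 51.5%, 42.7% and 48.7% of all tested genes did not overlap.

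The comparisons with the vector use the same 3 vector libraries. The 18 genes higher with MEL-18 WT include MMP3, which reached the filter through the MEL-18 WT libraries alone, and the filter favours such a difference. MMP3 is also among the 8 higher by at least 1.5-fold and the 34 without overlap. The 34 also include ADAM28, which reached the filter through the vector libraries alone. ADAMTS18, among the 10 lower with MEL-18 WT, reached the filter's level in every library of the other groups only, so the filter favours its difference too. A call in any comparison was made for 37 genes, and 10 had none: ADAMTSL4, MMP14, ADAMTS17, MMP25, LOXL3, MMP24, ADAM28, ADAM32, ADAMTS13 and TIMP1. Under every alternative that was run, 21 of 31, 19 of 28 and 15 of 23 calls were kept. Because a bulk library pools many cells, fewer cells that transcribe a gene and less RNA per cell cannot be told apart in any of these results. Exons of MMP19, MMP25, ADAM15, ADAM17, ADAM19, ADAMTS9, ADAMTSL4, TIMP2, LOX and LOXL3 also overlap other genes, and reads of such partners may be counted with them.

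**Figure D1:**
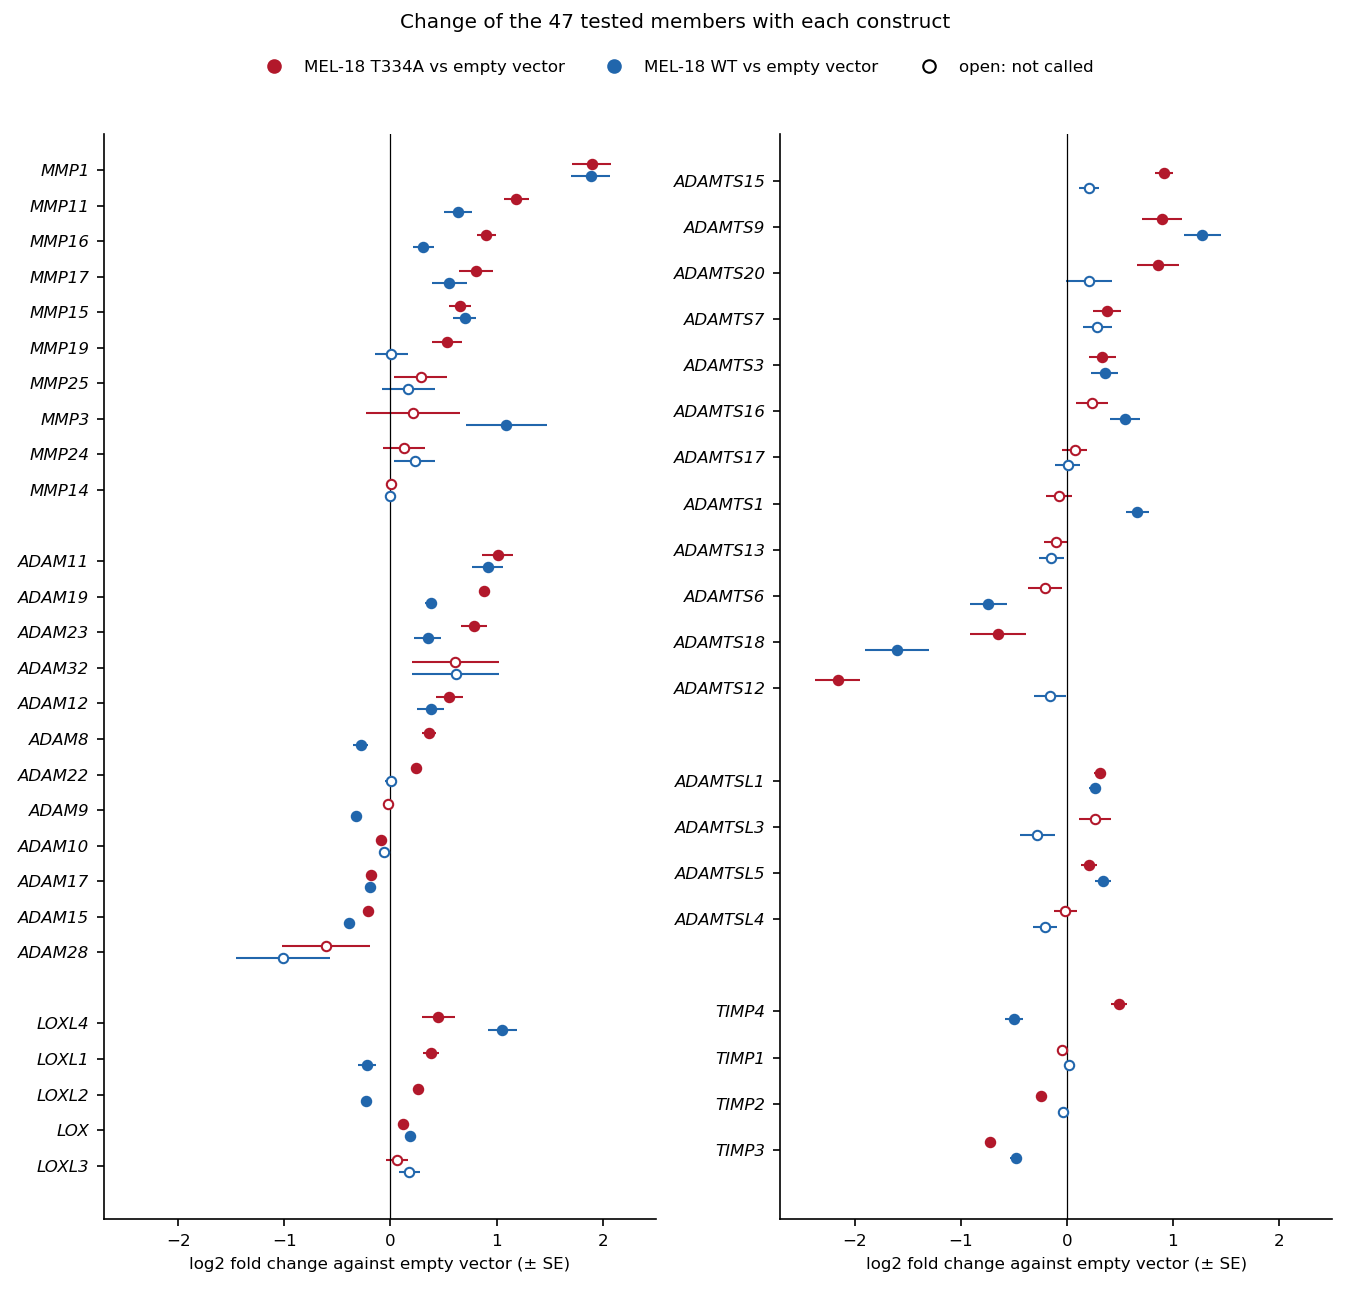
Log2 fold changes (x axis) of the tested genes, a row per gene, for MEL-18 T334A and for MEL-18 WT, each against the vector. Bars show 1 SE, and points are filled for genes called at an adjusted p below 0.05. MMP1 stands farthest to the right in both comparisons and ADAMTS12 farthest to the left for MEL-18 T334A against the vector.

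MMP1 and MMP11 were higher with each form of MEL-18 than with the vector. MMP1, the interstitial collagenase that cleaves fibrillar collagen, had 2.42, 2.01 and 2.79 CPM in MEL-18 T334A libraries and 2.35, 2.31 and 2.53 CPM in MEL-18 WT libraries, against 0.579, 0.684 and 0.669 CPM in vector libraries. Neither MEL-18 group overlapped the vector libraries, and the MEL-18 groups overlapped each other. The level was 3.72-fold higher with MEL-18 T334A (log2 fold change 1.90 ± 0.19 SE, edgeR adjusted p = 4.22e-09) and 3.70-fold higher with MEL-18 WT (1.89 ± 0.19, adjusted p = 9.95e-09). Between the MEL-18 groups the difference was 0.01 ± 0.14 on the log2 scale and was not called (adjusted p = 0.964). Exons of MMP1 and MMP3 overlap WTAPP1 on the opposite strand, which had at most 3 counts in a library.

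MMP11, or stromelysin-3, differed between all 3 groups. It had 4.38, 4.78 and 4.12 CPM in MEL-18 T334A libraries, 3.16, 2.96 and 2.95 CPM in MEL-18 WT libraries and 1.92, 1.81 and 2.10 CPM in vector libraries, with no overlap between any groups. The log2 fold change was 1.19 ± 0.12 for MEL-18 T334A against the vector (edgeR adjusted p = 7.01e-09), 0.64 ± 0.13 for MEL-18 WT against the vector (adjusted p = 3.74e-04) and 0.55 ± 0.11 between the forms (adjusted p = 1.66e-04). An exon of CHCHD10 overlaps MMP11 on the opposite strand over 218 bases. CHCHD10 stood at 30.1 ± 1.7, 30.6 ± 1.2 and 26.4 ± 1.1 CPM in the same order. It did not differ between the MEL-18 groups by more than its spread, but both means lay above that of the vector. The part of shared reads in the MMP11 differences from the vector was not tested.

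The low-level stromelysin MMP3 had 0.155, 0.198 and 0.282 CPM with MEL-18 T334A, 0.364, 0.461 and 0.361 CPM with MEL-18 WT and 0.274, 0.119 and 0.159 CPM with the vector. The MEL-18 WT libraries lay above all others. The gene reached the filter on low counts through these libraries alone, so the filter favours its difference from the vector and no test of it is given. MMP19 was called higher with MEL-18 T334A and not with MEL-18 WT. It had 3.01, 2.94 and 3.10 CPM there, 1.99, 1.79 and 2.56 CPM with MEL-18 WT and 1.71, 2.44 and 2.10 CPM with the vector. Its log2 fold change was 0.53 ± 0.15 against the vector (adjusted p = 0.00371) and 0.52 ± 0.14 against MEL-18 WT (adjusted p = 0.00431).

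The 6 membrane-type MMPs were all tested, and MMP15, MMP16 and MMP17 were higher with each form of MEL-18 than with the vector. MMP14, by far the most abundant per length, had no called difference, with 97.4, 101 and 91.0 CPM in MEL-18 T334A libraries, 97.2, 93.9 and 97.1 CPM in MEL-18 WT libraries and 95.5, 95.8 and 96.9 CPM in vector libraries. Its differences were 0.01 ± 0.03, 0.00 ± 0.03 and 0.01 ± 0.03 on the log2 scale in the 3 comparisons, none called (edgeR adjusted p = 0.887, 0.998 and 0.894).

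MMP16 (MT3-MMP) had 9.06, 8.37 and 7.89 CPM with MEL-18 T334A, 5.43, 5.65 and 5.66 CPM with MEL-18 WT and 5.09, 4.04 and 4.37 CPM with the vector, with no overlap between groups. It was higher in MEL-18 T334A cells than in vector cells by 0.90 ± 0.09 on the log2 scale (edgeR adjusted p = 6.76e-09) and than in MEL-18 WT cells by 0.60 ± 0.09 (adjusted p = 3.36e-06). The smaller difference of MEL-18 WT from the vector (0.31 ± 0.10, adjusted p = 0.0181) was lost with DESeq2 (adjusted p = 0.0744) and without vector replicate 2 or 3 or MEL-18 WT replicate 2 (adjusted p = 0.0511 to 0.116).

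MMP15 (MT2-MMP) had 7.04, 6.45 and 5.22 CPM with MEL-18 T334A and 6.74, 6.05 and 6.44 CPM with MEL-18 WT, against 4.0, 4.04 and 3.79 CPM with the vector. Both MEL-18 groups lay above the vector libraries, by 0.66 ± 0.11 and 0.70 ± 0.10 on the log2 scale (edgeR adjusted p = 1.27e-05 and 8.67e-06). MMP17 (MT4-MMP), which is held to the membrane by a lipid anchor, had 2.51, 3.17 and 2.42 CPM with MEL-18 T334A, 2.68, 2.06 and 2.05 CPM with MEL-18 WT and 1.34, 1.55 and 1.75 CPM with the vector. It was higher with MEL-18 T334A by 0.81 ± 0.16 (adjusted p = 1.55e-04) and with MEL-18 WT by 0.55 ± 0.16 (adjusted p = 0.0119). The second call was lost with DESeq2 (adjusted p = 0.0536) and without vector replicate 1 or MEL-18 WT replicate 1 (adjusted p = 0.0661 and 0.101). MMP24 and MMP25 averaged at most 1.26 CPM in a group and were not called.

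**Figure D2:**
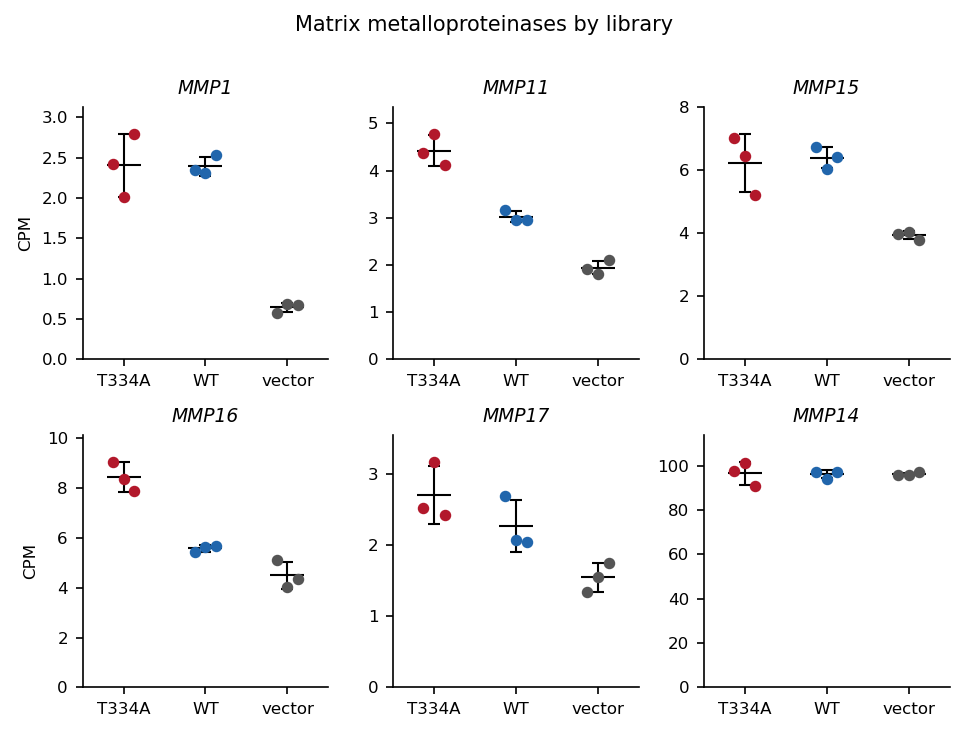
Levels (CPM, linear axes from 0) of 6 MMPs in each library of the MEL-18 T334A, MEL-18 WT and vector groups, with the mean and SD of 3 libraries. MMP1 is near 2.4 CPM in both MEL-18 groups and near 0.64 CPM with the vector, MMP11 and MMP16 are graded, and MMP14 is level at about 96 CPM.

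Among the 12 tested ADAMs, 6 were higher and 3 lower in MEL-18 T334A cells than in vector cells, where 23.4% and 22.5% of all tested genes were. In MEL-18 WT cells, 4 were higher and 4 lower than in vector cells, beside 14.4% of all tested genes each way. Between the forms, 6 were higher and 0 lower in MEL-18 T334A cells than in MEL-18 WT cells, beside 21% and 20% of all tested genes. The count of 0 was also 0 at an unadjusted p below 0.05 and with DESeq2, which called 2 of the 4 higher with MEL-18 WT. With the shift of chromosomal neighbours taken out, 3 of the 6 between the forms kept their call (ADAM9, ADAM15 and ADAM22 lost theirs). ADAM19, a sheddase of neuregulin, had 43.4, 42.7 and 40.2 CPM with MEL-18 T334A, 29.9, 28.4 and 30.7 CPM with MEL-18 WT and 22.2, 21.7 and 24.6 CPM with the vector. No groups overlapped. The log2 fold change of ADAM19 was 0.88 ± 0.05 for MEL-18 T334A against the vector (edgeR adjusted p = 4.32e-14), 0.38 ± 0.05 for MEL-18 WT against the vector (adjusted p = 1.53e-06) and 0.51 ± 0.05 between the forms (adjusted p = 1.49e-09). ADAM12, a sheddase of heparin-binding EGF, averaged 3.05 ± 0.35, 2.71 ± 0.054 and 2.09 ± 0.037 CPM in the same order (SD, n = 3 each). Its calls against the vector, 0.55 ± 0.13 with MEL-18 T334A (adjusted p = 8.72e-04) and 0.38 ± 0.13 with MEL-18 WT (adjusted p = 0.0306), stood beside neighbour medians of 0.34 and 0.14 on chromosome 10 and were lost with that shift taken out (adjusted p = 0.213 and 0.263). The second was also lost with DESeq2 (0.151) and without any of the 6 libraries (0.0572 to 0.0803).

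Abundant sheddases were lower in some comparisons, by small amounts. ADAM15 had 181, 198 and 191 CPM with MEL-18 T334A, 165, 171 and 165 CPM with MEL-18 WT and 218, 219.7 and 221 CPM with the vector. It was lower than with the vector in both MEL-18 groups, at -0.21 ± 0.03 and -0.39 ± 0.03 on the log2 scale (edgeR adjusted p = 3.56e-06 and 1.39e-10), while the median of its 40 chromosomal neighbours was -0.07 and -0.21. Between the forms it was called at 0.19 ± 0.03, which became 0.03 (adjusted p = 0.566) once the shift of its neighbours was taken out. ADAM9 had 354, 344 and 353 CPM with MEL-18 T334A, 286, 285 and 284 CPM with MEL-18 WT and 358, 354 and 355 CPM with the vector. Only the MEL-18 WT libraries stood apart, at -0.32 ± 0.03 against the vector (adjusted p = 3.97e-10). Between MEL-18 T334A and MEL-18 WT, ADAM9 and its neighbours on chromosome 8 were raised alike, by 0.30 ± 0.03 and a median of 0.25, and the call ended once the neighbours' shift was taken out (0.07, adjusted p = 0.063), while ADAM9 was then called lower with MEL-18 T334A than with the vector (-0.18, adjusted p = 3.08e-06).

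ADAM17, the sheddase of TNF and of several EGF receptor ligands, had 58.2, 58.0 and 53.4 CPM with MEL-18 T334A, 58.7, 54.3 and 55.0 CPM with MEL-18 WT and 60.8, 64.2 and 67.4 CPM with the vector. Both MEL-18 groups lay below the vector libraries, at -0.18 ± 0.04 and -0.19 ± 0.04 on the log2 scale (edgeR adjusted p = 7.6e-04 and 6.7e-04). Its neighbours on chromosome 2 had medians of -0.11 and -0.14, and with that shift taken out neither call remained (adjusted p = 0.117 and 0.394). ADAM10, which cleaves Notch and cadherins, had 272, 273 and 261 CPM with MEL-18 T334A, 279, 277 and 271 CPM with MEL-18 WT and 285, 280.2 and 294 CPM with the vector. The difference of MEL-18 T334A from the vector was -0.09 ± 0.03 (adjusted p = 0.00924) and was lost with library totals (adjusted p = 0.127), with the neighbours' shift taken out (0.0766) and without vector replicate 3 (0.0928).

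Of the 4 tested ADAMs that lack a working protease site and act as adhesion proteins or receptors, 3 were higher with MEL-18 T334A than with the vector and 2 with MEL-18 WT. Of all tested genes, 23.4% and 14.4% were higher in these comparisons. ADAM32 was not called. ADAM11 had 3.26, 3.06 and 3.47 CPM with MEL-18 T334A and 2.82, 3.12 and 3.22 CPM with MEL-18 WT, against 1.40, 1.40 and 2.07 CPM with the vector. Both MEL-18 groups lay above the vector, by 1.01 ± 0.15 and 0.92 ± 0.15 on the log2 scale (edgeR adjusted p = 2.6e-06 and 2.39e-05). ADAM23, a binding partner of LGI1, had 4.06, 3.88 and 4.26 CPM with MEL-18 T334A, 3.22, 2.90 and 2.89 CPM with MEL-18 WT and 1.98, 2.47 and 2.61 CPM with the vector. The MEL-18 T334A libraries were above both other groups, by 0.79 ± 0.12 against the vector (adjusted p = 5.76e-06) and 0.44 ± 0.11 against MEL-18 WT (adjusted p = 0.00278). For MEL-18 WT against the vector the difference was 0.35 ± 0.13 (adjusted p = 0.0387), which was lost with DESeq2 (adjusted p = 0.157), with the neighbours' shift taken out (0.0559), with the replicate block (0.054) and without any of 5 libraries, all but vector replicate 3 (0.0558 to 0.21). ADAM22, a receptor of LGI1, was higher with MEL-18 T334A by 0.24 ± 0.05 against each other group, but against MEL-18 WT its neighbours had a median of 0.19 and the call ended without their shift (adjusted p = 0.372).

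The secreted ADAMTS genes held the largest fall. ADAMTS12, a protease that binds cartilage oligomeric matrix protein, had 0.652, 0.481 and 0.451 CPM in MEL-18 T334A libraries, against 1.76, 2.63 and 1.90 CPM in MEL-18 WT libraries and 2.5, 2.44 and 2.10 CPM in vector libraries. The MEL-18 T334A libraries lay below all others, and the other groups overlapped. The level was 4.46-fold lower than with the vector (log2 fold change -2.16 ± 0.21, edgeR adjusted p = 4.07e-09) and 4.0-fold lower than with MEL-18 WT (-2.0 ± 0.21, adjusted p = 2.95e-08), while MEL-18 WT differed from the vector by -0.16 ± 0.15 (adjusted p = 0.489). Its neighbours had medians of -0.01 and -0.02 in the comparisons that involve MEL-18 T334A.

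Of the 4 tested proteoglycan-cutting ADAMTS enzymes, 3 were higher with MEL-18 T334A than with the vector and 2 with MEL-18 WT. The shares of all tested genes were 23.4% and 14.4%. Between the forms 2 were higher and 2 lower, beside 21% and 20% of all tested genes. ADAMTS15 had 10.95, 12.2 and 10.2 CPM with MEL-18 T334A, 7.10, 6.38 and 6.98 CPM with MEL-18 WT and 5.18, 6.30 and 6.25 CPM with the vector. It was higher with MEL-18 T334A than with the vector by 0.91 ± 0.09 (edgeR adjusted p = 2.03e-09) and than with MEL-18 WT by 0.71 ± 0.08 (adjusted p = 1.18e-07). MEL-18 WT was not called against the vector (0.21 ± 0.09, adjusted p = 0.106). ADAMTS20 had 1.46, 1.30 and 1.21 CPM with MEL-18 T334A, 0.951, 0.706 and 0.873 CPM with MEL-18 WT and 0.701, 0.773 and 0.701 CPM with the vector. The MEL-18 T334A libraries lay above all others. It rose by 0.86 ± 0.20 against the vector (adjusted p = 8.5e-04) and by 0.65 ± 0.19 against MEL-18 WT (adjusted p = 0.00712), the second call being lost with DESeq2 (adjusted p = 0.0742) and without MEL-18 WT replicate 2 (0.0519).

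ADAMTS9, a versican-cutting enzyme, had 3.04, 2.43 and 1.89 CPM with MEL-18 T334A and 2.57, 3.47 and 3.49 CPM with MEL-18 WT, against 1.19, 1.22 and 1.53 CPM with the vector. Both MEL-18 groups lay above the vector, by 0.90 ± 0.19 and 1.28 ± 0.18 on the log2 scale (edgeR adjusted p = 2.8e-04 and 2.5e-06). Their own difference (-0.38 ± 0.15, adjusted p = 0.0453) did not hold under DESeq2 (adjusted p = 0.158), under the replicate block, library totals, the compared groups alone or the neighbours' shift taken out (0.055 to 0.0903), nor without MEL-18 WT replicate 2 or 3 or MEL-18 T334A replicate 2 or 3 (0.105 to 0.239). ADAMTS1, the founding member of the family, had 4.84, 4.05 and 5.53 CPM with MEL-18 T334A, 7.24, 9.18 and 7.61 CPM with MEL-18 WT and 5.89, 4.73 and 4.56 CPM with the vector. Only MEL-18 WT libraries stood apart: the change was 0.66 ± 0.11 for MEL-18 WT against the vector (adjusted p = 3.36e-05) and -0.74 ± 0.11 between the forms (adjusted p = 5.25e-06).

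ADAMTS18 and ADAMTS6 were lowest with MEL-18 WT. ADAMTS18 had 0.714, 0.424 and 0.479 CPM with MEL-18 T334A, 0.196, 0.299 and 0.331 CPM with MEL-18 WT and 0.671, 0.773 and 1.08 CPM with the vector. Its MEL-18 WT libraries did not all reach the level of the filter on low counts, whereas those of the other groups did. The filter thus favours its differences from MEL-18 WT. The log2 fold change of ADAMTS18 was -1.60 ± 0.30 with MEL-18 WT compared to vector (edgeR adjusted p = 1.89e-04). Its other calls were weak: -0.65 ± 0.26 for MEL-18 T334A against the vector (adjusted p = 0.0453, and 0.203 with DESeq2) and 0.95 ± 0.34 between the forms (adjusted p = 0.0242, and 0.0878 with DESeq2). The first was lost with the replicate block, library totals, the compared groups alone or the neighbours' shift taken out (adjusted p = 0.0531 to 0.0654), and without vector replicate 2 or 3 or MEL-18 T334A replicate 2 or 3 (-0.43 to -0.70, adjusted p = 0.065 to 0.26), and the second without replicate 1 of MEL-18 WT or of MEL-18 T334A (adjusted p = 0.111 and 0.141). ADAMTS6 had 2.39, 2.38 and 4.03 CPM with MEL-18 T334A, 1.93, 2.31 and 1.84 CPM with MEL-18 WT and 3.54, 3.78 and 2.84 CPM with the vector. It was lower with MEL-18 WT than with the vector (-0.74 ± 0.17, adjusted p = 0.00162). The difference between MEL-18 T334A and MEL-18 WT (0.54 ± 0.18, adjusted p = 0.0158) rested on MEL-18 T334A replicate 3, without which it was 0.23 (adjusted p = 0.261), and it was also lost without MEL-18 WT replicate 1 or 3 (adjusted p = 0.0534 and 0.0666).

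Of the remaining ADAMTS genes, ADAMTS16 was higher with MEL-18 WT by 0.55 ± 0.14 against the vector (edgeR adjusted p = 0.00383). ADAMTS3, which removes the N-propeptide of procollagen, was called against the vector at 0.33 ± 0.13 with MEL-18 T334A and 0.36 ± 0.13 with MEL-18 WT, and both calls were lost with DESeq2 (adjusted p = 0.147 and 0.163). They also ended when vector replicate 2 or 3, MEL-18 T334A replicate 2 or any MEL-18 WT replicate was left out (adjusted p = 0.0517 to 0.128). ADAMTS7 was called with MEL-18 T334A alone (0.38 ± 0.13, adjusted p = 0.02), and not with DESeq2 (0.0736) or without vector replicate 1 or MEL-18 T334A replicate 2 (0.115 and 0.161). Among the ADAMTS-like proteins, which lack the protease domain, ADAMTSL1 was higher with both forms of MEL-18, at 23.2 ± 1.7 CPM with MEL-18 T334A and 22.4 ± 0.91 CPM with MEL-18 WT against 18.7 ± 0.071 CPM with the vector (SD, n = 3 each). ADAMTSL5 averaged 8.85 ± 0.39, 9.66 ± 0.16 and 7.63 ± 0.61 CPM in the same order, and its call with MEL-18 T334A, unlike that with MEL-18 WT, was lost with DESeq2 (adjusted p = 0.102) and without vector replicate 1 or MEL-18 T334A replicate 1 or 2 (0.0513 to 0.13). ADAMTSL3 was higher with MEL-18 T334A than with MEL-18 WT by 0.54 ± 0.15 (adjusted p = 0.00614, and 0.0555 with DESeq2).

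**Figure D3:**
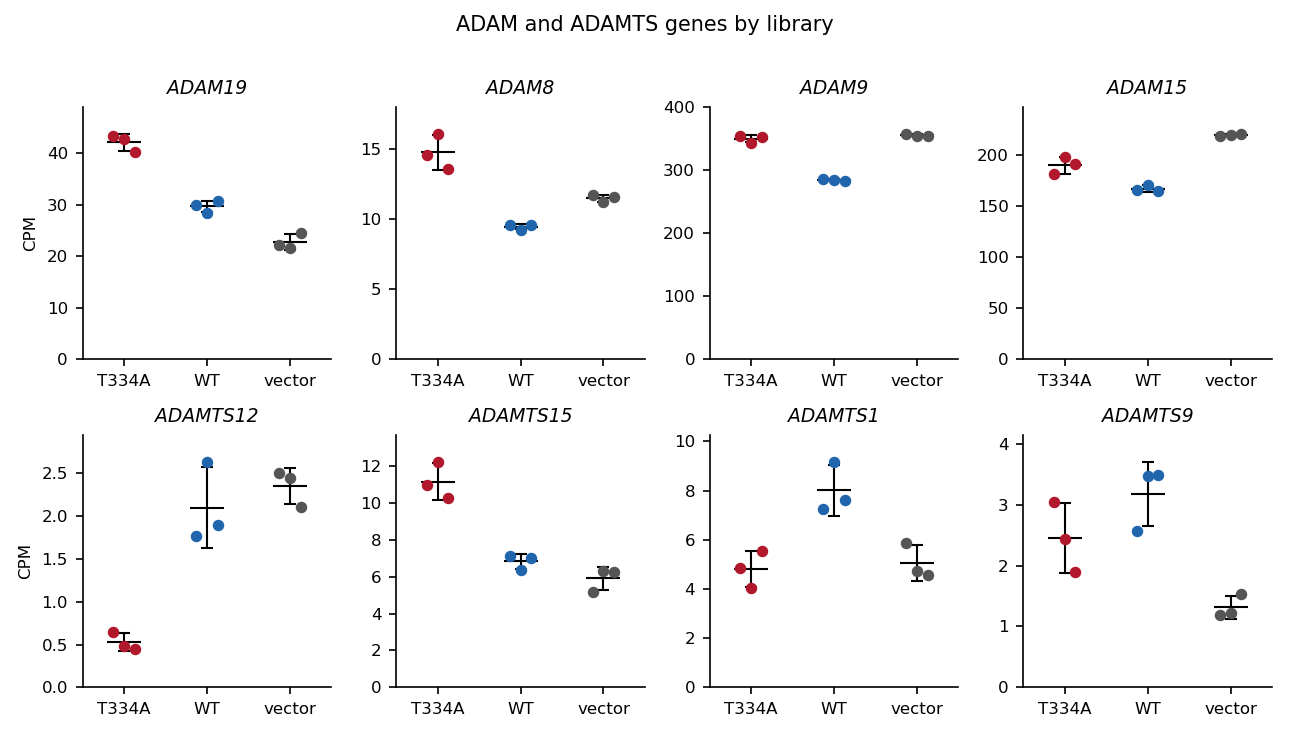
Levels (CPM, linear axes from 0) of 4 ADAM and 4 ADAMTS genes in each library of the MEL-18 T334A, MEL-18 WT and vector groups, with the mean and SD of 3 libraries. ADAM19 and ADAMTS15 are highest and ADAMTS12 lowest with MEL-18 T334A, and ADAM9 is lowest with MEL-18 WT.

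Each TIMP had a pattern of its own. TIMP1 had 52.9, 57.7 and 53.5 CPM in MEL-18 T334A libraries, 54.8, 59.3 and 58.6 CPM in MEL-18 WT libraries and 57.4, 56.4 and 56.0 CPM in vector libraries, and was not called in any comparison (edgeR adjusted p = 0.134 to 0.691). TIMP2, an inhibitor that also takes part in the activation of MMP2, had 218, 221 and 208 CPM with MEL-18 T334A, 252, 248 and 249.9 CPM with MEL-18 WT and 251, 263 and 254 CPM with the vector. The MEL-18 T334A libraries lay below all others, at -0.25 ± 0.03 against the vector (adjusted p = 1.36e-07) and -0.21 ± 0.03 against MEL-18 WT (adjusted p = 1.81e-06).

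TIMP3, the inhibitor that binds to the matrix and also blocks ADAM17, had 77.6, 72.3 and 63.3 CPM with MEL-18 T334A, 86.7, 78.0 and 86.6 CPM with MEL-18 WT and 113, 113 and 125 CPM with the vector. Its groups did not overlap, and MEL-18 T334A was the lowest. The log2 fold change was -0.72 ± 0.05 for MEL-18 T334A against the vector (edgeR adjusted p = 1.1e-11), -0.48 ± 0.05 for MEL-18 WT against the vector (adjusted p = 3.36e-08) and -0.24 ± 0.05 between the forms (adjusted p = 6.45e-04), while its neighbours on chromosome 22 had medians of -0.02, 0.05 and -0.01. TIMP4 had 16.1, 17.3 and 13.5 CPM with MEL-18 T334A, 7.47, 7.49 and 8.64 CPM with MEL-18 WT and 10.7, 11.4 and 11.1 CPM with the vector. The vector libraries thus lay between the MEL-18 groups, and no groups overlapped.

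**Figure D4:**
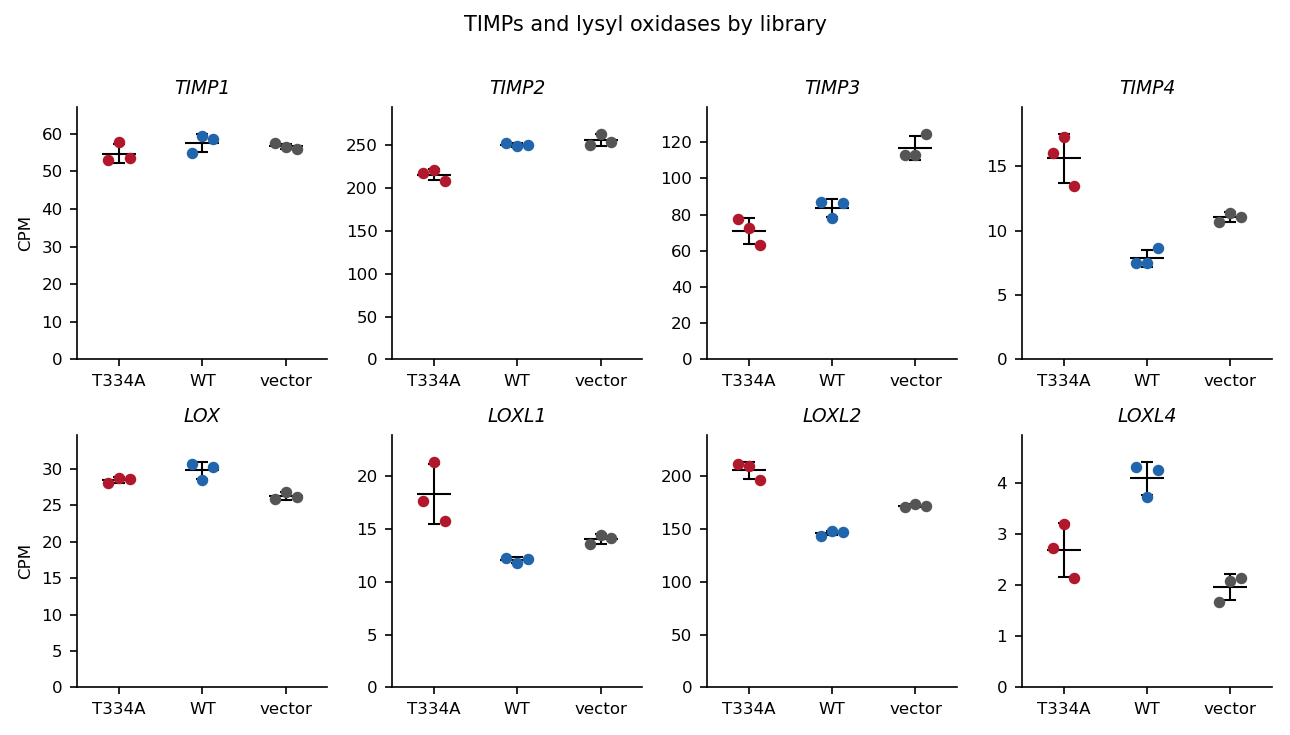
Levels (CPM, linear axes from 0) of the TIMPs and of the lysyl oxidases LOX, LOXL1, LOXL2 and LOXL4 in each library of the MEL-18 T334A, MEL-18 WT and vector groups, with the mean and SD of 3 libraries. TIMP3 is lower in both MEL-18 groups than with the vector, and TIMP4, LOXL1 and LOXL2 have the vector libraries between MEL-18 T334A above and MEL-18 WT below.

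Of the lysyl oxidases, 4 of 5 were higher with MEL-18 T334A than with the vector and 0 were lower, against 2 higher and 2 lower with MEL-18 WT. With DESeq2 the first counts were 2 and 0, and 0 were lower at an unadjusted p below 0.05. Over all tested genes, 23.4% were higher and 22.5% lower with MEL-18 T334A, and 14.4% each with MEL-18 WT. LOX, the founding enzyme, changed little, with 28.1, 28.8 and 28.6 CPM in MEL-18 T334A libraries, 30.8, 28.5 and 30.3 CPM in MEL-18 WT libraries and 25.8, 26.9 and 26.2 CPM in vector libraries. The difference from the vector was 0.18 ± 0.04 with MEL-18 WT (edgeR adjusted p = 0.00207) and 0.12 ± 0.04 with MEL-18 T334A (adjusted p = 0.0308). The second was lost with DESeq2 (adjusted p = 0.123), with no filter (0.0617) and without vector replicate 1 or 3 or MEL-18 T334A replicate 2 (0.0571 to 0.0889). LOXL4 had 2.73, 3.20 and 2.14 CPM with MEL-18 T334A, 4.31, 3.72 and 4.24 CPM with MEL-18 WT and 1.68, 2.08 and 2.14 CPM with the vector. It was highest with MEL-18 WT, by 1.06 ± 0.14 against the vector (adjusted p = 1.46e-06), and MEL-18 T334A was lower than MEL-18 WT (-0.60 ± 0.13, adjusted p = 4.74e-04). The call of MEL-18 T334A against the vector (0.45 ± 0.15, adjusted p = 0.0171) was lost with DESeq2 (adjusted p = 0.0562), with the neighbours' shift taken out (0.168) and without vector replicate 1 or MEL-18 T334A replicate 2 (0.0927 and 0.143). LOXL3, at 4.17 ± 0.28, 4.53 ± 0.38 and 4.0 ± 0.18 CPM, was not called.

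ADAM8, TIMP4, LOXL1 and LOXL2 were higher than with the vector in MEL-18 T334A cells and lower in MEL-18 WT cells. TIMP4 differed by 0.50 ± 0.08 with MEL-18 T334A (edgeR adjusted p = 6.52e-06) and by -0.50 ± 0.09 with MEL-18 WT (adjusted p = 5.97e-05), so that MEL-18 T334A stood 1.99-fold above MEL-18 WT (0.99 ± 0.08, adjusted p = 2.1e-10). An exon of SYN2 overlaps TIMP4 on the opposite strand over 170 bases, and SYN2 had 1.35 ± 0.20, 0.986 ± 0.094 and 1.10 ± 0.12 CPM with MEL-18 T334A, MEL-18 WT and the vector. LOXL1, an enzyme that cross-links elastin, had 17.7, 21.4 and 15.8 CPM with MEL-18 T334A, 12.3, 11.7 and 12.1 CPM with MEL-18 WT and 13.5, 14.4 and 14.2 CPM with the vector. It was higher with MEL-18 T334A than with the vector by 0.38 ± 0.08 (adjusted p = 1.63e-04) and than with MEL-18 WT by 0.60 ± 0.08 (adjusted p = 5.05e-07). Its fall with MEL-18 WT (-0.22 ± 0.08, adjusted p = 0.0411) ended with DESeq2 (adjusted p = 0.0867), on library totals (0.0749) and without any of 5 libraries, all but vector replicate 1 (0.0687 to 0.131). LOXL1-AS1, which overlaps LOXL1 on the opposite strand over 133 bases, had 19.2 ± 0.64, 18.5 ± 1.5 and 17.5 ± 1.6 CPM with MEL-18 T334A, MEL-18 WT and the vector and was not called.

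LOXL2, which also cross-links basement membrane collagen, had 211, 209 and 196 CPM with MEL-18 T334A, 143, 148 and 147 CPM with MEL-18 WT and 170.3, 173 and 172 CPM with the vector. The log2 fold change was 0.26 ± 0.03 for MEL-18 T334A against the vector (edgeR adjusted p = 9.15e-08), -0.23 ± 0.03 for MEL-18 WT against the vector (adjusted p = 1.31e-06) and 0.49 ± 0.03 between the forms (adjusted p = 9.8e-13). Its neighbours on chromosome 8 moved with it, with medians of 0.11, -0.20 and 0.33, and with their shift taken out the differences were 0.14 (adjusted p = 5.21e-04), -0.03 (adjusted p = 0.603) and 0.17 (adjusted p = 1.28e-04). An exon of ENTPD4 on the same strand shares 120 bases with LOXL2, and ENTPD4 had 117 ± 5.4, 94.9 ± 5.5 and 98.9 ± 1.7 CPM with MEL-18 T334A, MEL-18 WT and the vector. ADAM8, a sheddase first described in leukocytes, had 14.6, 16.1 and 13.6 CPM with MEL-18 T334A, 9.59, 9.23 and 9.54 CPM with MEL-18 WT and 11.7, 11.2 and 11.5 CPM with the vector. Its rise of 0.36 ± 0.07 with MEL-18 T334A (adjusted p = 5.32e-05) stood beside a neighbour median of 0.40 on chromosome 10 and was not called with that shift taken out (-0.02, adjusted p = 0.882). For MEL-18 WT against the vector and between the forms, the ADAM8 differences of -0.28 ± 0.07 (adjusted p = 0.00334) and 0.64 ± 0.07 (adjusted p = 1.9e-08) remained called as -0.43 and 0.41. TIMP4 and LOXL1 kept their calls in all 3 comparisons with the shift taken out.

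**Figure D5:**
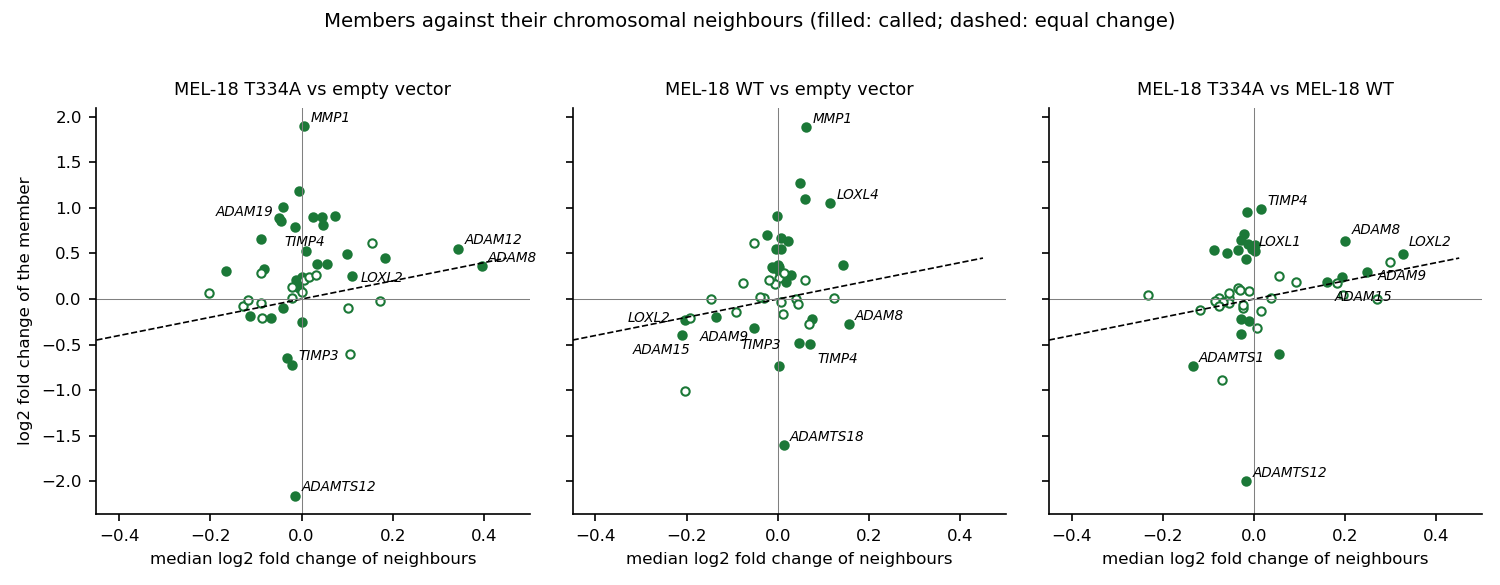
Log2 fold change of each tested gene (y axis) against the median log2 fold change of up to 20 tested genes on each side of it on the chromosome (x axis), in the 3 comparisons, with called genes filled and a dashed line where both are equal. ADAM8 (0.36 against 0.40) lies on the line for MEL-18 T334A against the vector and LOXL2 (-0.23 against -0.20) for MEL-18 WT against the vector. MMP1, TIMP3 and TIMP4 lie far from the line in both comparisons with the vector, and ADAMTS12 in both that involve MEL-18 T334A.

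Genes that work with these families were counted in the same fit. Over all tested genes, 23.4% were higher and 22.5% lower with MEL-18 T334A than with the vector. The shares were 14.4% each with MEL-18 WT, and 21% and 20% between the forms. Of 9 partners that help ADAM10 and ADAM17 mature or reach the surface, 6 were higher and 0 lower with MEL-18 T334A than with the vector, 3 and 0 with MEL-18 WT, and 4 and 0 between the forms. DESeq2 called 6, 2 and 2 of them higher, RHBDF1 being lost with MEL-18 WT and RHBDF2 and FRMD8 between the forms. TSPAN15, a tetraspanin that pairs with ADAM10, averaged 39.4 ± 2.8 CPM with MEL-18 T334A, 26.8 ± 0.59 CPM with MEL-18 WT and 28.3 ± 0.59 CPM with the vector (log2 fold change 0.48 ± 0.05 against the vector, edgeR adjusted p = 4.15e-09, beside a neighbour median of 0.17). Of 7 EGF receptor ligands that ADAMs release, 0 were higher and 2 lower with MEL-18 T334A, and 0 and 1 with MEL-18 WT. Between the forms BTC was higher and EREG and TGFA were lower with MEL-18 T334A, and DESeq2 kept EREG alone. EREG, the ligand epiregulin, averaged 93.9 ± 1.9 CPM with MEL-18 T334A, 144 ± 1.8 CPM with MEL-18 WT and 156 ± 3.0 CPM with the vector, a change of -0.73 ± 0.03 with MEL-18 T334A (adjusted p = 8.59e-17) and -0.12 ± 0.03 with MEL-18 WT (adjusted p = 0.00285).

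Of 8 tested partners of the lysyl oxidases, 6 were higher and 0 lower with MEL-18 T334A, 3 and 0 with MEL-18 WT, and 5 and 1 between the forms. Calls in either direction covered 45.9%, 28.8% and 40.9% of all tested genes in these comparisons. FBLN5, a fibulin that helps LOXL1 assemble elastic fibres, averaged 2.76 ± 0.35 CPM with MEL-18 T334A, 0.980 ± 0.11 CPM with MEL-18 WT and 0.716 ± 0.17 CPM with the vector (1.94 ± 0.18 against the vector, edgeR adjusted p = 2.03e-09, and 1.48 ± 0.17 against MEL-18 WT, adjusted p = 6.63e-08). BMP1, which removes the propeptide of LOX, averaged 21.5 ± 1.2, 14.7 ± 0.38 and 14.9 ± 0.98 CPM in the same order, and between the forms its own change of 0.55 ± 0.06 stood beside a neighbour median of 0.31 on chromosome 8. The proprotein convertases, which switch on MMP and ADAM precursors, had 0 of 4 called with MEL-18 T334A against the vector (lowest adjusted p = 0.214) and 2 higher with MEL-18 WT, PCSK5 at 0.55 ± 0.08 (adjusted p = 8.71e-06) and PCSK6 at 0.18 ± 0.05 (adjusted p = 0.0093, a call that DESeq2 did not make). In the direct comparison PCSK5 and PCSK6 were both lower with MEL-18 T334A than with MEL-18 WT, and DESeq2 kept these calls.

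Among 9 tested inhibitors and surface regulators of MMPs, 3 were higher and 1 lower with MEL-18 T334A, 2 and 2 with MEL-18 WT, and 1 and 0 between the forms. In these comparisons, 45.9%, 28.8% and 40.9% of all tested genes were called. SPOCK1, a matrix proteoglycan known as testican-1, was higher by 0.79 ± 0.12 and 0.71 ± 0.12 with the forms in that order, and BSG, or basigin, known for inducing MMPs, was lower, at -0.17 ± 0.03 and -0.14 ± 0.03. The membrane-anchored inhibitor RECK was not called, at 14.1 ± 0.94, 13.5 ± 0.36 and 13.5 ± 0.53 CPM with MEL-18 T334A, MEL-18 WT and the vector. Of 10 tested matrix-degrading enzymes of other families, 5 were higher and 1 lower with MEL-18 T334A, 3 and 2 with MEL-18 WT, and 4 and 0 between the forms. HPSE, the heparanase that cuts heparan sulphate, averaged 32.4 ± 1.5 CPM with MEL-18 T334A and 29.2 ± 1.1 CPM with MEL-18 WT against 19.9 ± 0.90 CPM with the vector. PLAT, the tissue plasminogen activator, averaged 77.3 ± 4.5 and 71.5 ± 5.4 CPM against 120.4 ± 9.4 CPM, and the serine protease HTRA3 averaged 2.52 ± 0.25 and 2.70 ± 0.34 CPM against 1.17 ± 0.21 CPM (SD, n = 3 each). The cysteine protease CTSB, on chromosome 8, changed by 0.21 ± 0.03 with MEL-18 T334A and -0.24 ± 0.03 with MEL-18 WT, beside neighbour medians of 0.19 and -0.23. The counts of 0 in these lists were also 0 with DESeq2 and at an unadjusted p below 0.05, except that 1 ADAM partner was lower and 1 ligand higher with MEL-18 WT at that unadjusted p.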

How the data were processed

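Poly(A)-selected RNA of 9 MDA-MB-231 cultures was sequenced with a strand-specific kit, per the labels' protocols. The deposited files hold raw read counts per gene symbol. The submitters' processing notes name CASAVA 1.8, STAR 2.5.3a, Subread 1.5.3 with featureCounts, and hg19. Annotation and strand setting are not stated there, so reads shared by overlapping genes cannot be told apart.

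The genes, the partner lists and the alternatives were chosen with earlier results of these data known. Counts of all 26364 genes were filtered with edgeR's filterByExpr (14738 kept, with at least 99.95% of each library's counts), scaled by TMM (factors 0.979 to 1.02) and tested two-sided with edgeR 4.0.16's quasi-likelihood F test in R 4.3.3, on 9 libraries with a mean per group. P-values were adjusted by Benjamini-Hochberg over all tested genes and called below 0.05. Each SE was taken as the size of the log2 fold change divided by the root of its F. The biological coefficient of variation was 2.57%.

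The rule for named genes took a fixed set (MMP1, MMP2, MMP9, MMP14, ADAM10, ADAM17, TIMP1 to TIMP3, LOX and LOXL2), the MMPs clustered on chromosome 11, and every gene called at 1.5-fold or more with a mean of at least 0.5 CPM. Other genes of the families are named to account for them, and partners by size of change. RECK was named after its values were seen.

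RPKM used the union of exons of GENCODE 29 transcripts, a GRCh38 annotation, and promoters came from RefSeq. The neighbours' shift is the median of up to 20 tested genes on each side in RefSeq gene order. As an alternative it entered the fit as a fixed offset, whose own error the p-values ignore. The other alternatives were DESeq2 1.42.0, RLE factors, library totals, no filter, the replicate number as a block, the compared groups alone, and each library left out. The fits were checked on simulated counts. All pairs of replicates differed by more than sampling noise (chi-square 1.49 to 3.98 per degree of freedom).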

Additional observations from a re-analysis of the deposited data

Results flagged for a closer look

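Against the same vector libraries, TIMP4, ADAM8, LOXL1 and LOXL2 were called higher with MEL-18 T334A and lower with MEL-18 WT, and each difference between the forms was itself tested. The log2 fold change of MEL-18 T334A against MEL-18 WT was 0.99 for TIMP4, 0.64 for ADAM8, 0.60 for LOXL1 and 0.49 for LOXL2 (edgeR quasi-likelihood test, adjusted p = 2.1e-10, 1.9e-08, 5.05e-07 and 9.8e-13). In each gene every MEL-18 T334A library lay above every vector library, and every MEL-18 WT library below. With the shift of chromosomal neighbours taken out, the difference between the forms stayed called, at 0.98 for TIMP4, 0.41 for ADAM8, 0.61 for LOXL1 and 0.17 for LOXL2. The opposite calls against the vector remained for TIMP4 and LOXL1, while ADAM8 lost its call with MEL-18 T334A and LOXL2 its call with MEL-18 WT. The LOXL1 call with MEL-18 WT ended with DESeq2 (adjusted p = 0.0867), on library totals (0.0749) and when any of 5 of the 6 libraries was left out (0.0687 to 0.131).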

How the results depend on the processing

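The counts of members higher and lower stayed within 1.5 times of the main ones under every alternative: with DESeq2 they were 20 and 6 for MEL-18 T334A against the vector (24 and 7 in the main test; the 20 include MMP28, which edgeR did not test), 12 and 9 for MEL-18 WT against the vector (18 and 10) and 14 and 5 between the forms (17 and 6). With the neighbours' shift taken out they were 22 and 5, 16 and 9, and 15 and 5. Leaving out 1 library at a time gave 19 to 24 higher and 5 to 7 lower, 13 to 16 and 9 to 10, and 15 to 17 and 5 to 7. The replicate numbers do not pair the libraries (same-number correlations of deviations from -0.0791 to 0.0137), and a fit with the replicate block gave 24 and 6, 17 and 10, and 17 and 5. Among fold changes of single genes that were called, or that the rule for named genes fixed in every comparison, 1100 kept direction and side of the threshold, 100 were no longer called, 3 became called and 19 changed sign. The 3 were ADAM10 for MEL-18 WT against the vector with the shift taken out (-0.10, adjusted p = 0.0131) and TIMP1 between the forms without MEL-18 WT replicate 1 (-0.11, adjusted p = 0.0459) or MEL-18 T334A replicate 2 (-0.11, adjusted p = 0.0346). Among the other genes, those that became called with the shift taken out were ADAM9 and LOXL3 (0.27, adjusted p = 0.0451) for MEL-18 T334A against the vector, ADAM22 (0.16, adjusted p = 0.0247) for MEL-18 WT against the vector and ADAMTSL1 (0.28, adjusted p = 0.000144) between the forms. A left-out library did the same for ADAMTS6, ADAM28, ADAMTS16 and MMP3, in 1 comparison each. Of the 19 changes of sign, those outside ADAM8 were in uncalled differences. With the shift taken out, MEL-18 T334A against the vector turned to -0.0151 for ADAM8 and 0.0437 for TIMP1, MEL-18 WT against the vector to -0.0516 for MMP14, and the forms to 0.0343 for ADAM10 and -0.029 for ADAM17. MMP14 with MEL-18 WT was -0.00109 with RLE factors and -0.00108 with DESeq2. With a library left out, MMP14 ranged over -0.0236 to 0.0518 (MEL-18 T334A against the vector), -0.00876 to 0.019 (MEL-18 WT against the vector) and -0.0266 to 0.0488 (between the forms), MMP1 between the forms over -0.116 to 0.13 and ADAM17 between the forms over -0.008 to 0.0532. The cause of these shifts was not tested. Depth limits MMP3, ADAM28, ADAM32 and ADAMTS18, which did not reach the filter's level in every library.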
